A study of Mus musculus with 2 samples.

Results

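Regulators of the primitive streak and the caudal epiblast, the cells at the posterior end of the gastrulating embryo, were followed in mouse embryonic stem cells (ESCs) with and without a mutation at threonine 258 of Sox2. The 10 genes T, Eomes, Mixl1, Cdx1, Cdx2, Cdx4, Evx1, Wnt3, Wnt8a and Mesp1 were chosen by symbol from a gene table of 24532 genes, and all 10 were found in it. The study asked which genes depend on the sugar O-GlcNAc at this residue, which alanine cannot carry, and sequenced polyadenylated RNA of 2 kinds of cells grown as ESCs. E14 is an established mouse ESC line, wild type for Sox2 and cultured with serum and leukemia inhibitory factor (LIF). E14-Sox2 TA/WT is 1 clone of E14, edited with CRISPR/Cas9, in which 1 Sox2 allele carries T258A and the other is wild type. This clone was selected and kept with 2i, inhibitors of the kinases Mek and Gsk3, which were withdrawn before use. With 1 library per genotype there was no replicate check, and genotype, clone and culture history cannot be told apart. E14 gave 60263536 counted reads and E14-Sox2 TA/WT gave 44609228.

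In the embryo, the primitive streak forms where Nodal, Wnt and bone morphogenetic protein (BMP) signals meet in the posterior epiblast. Wnt3 and Nodal switch on the T-box factors T (Brachyury) and Eomes there, the homeobox factor Mixl1 follows, and Mesp1 marks the mesoderm that leaves the streak for the heart and head. As the axis extends, T, Evx1, Wnt8a and the caudal homeobox genes Cdx1, Cdx2 and Cdx4 act in the caudal epiblast, where Wnt and fibroblast growth factor (FGF) signals keep the axial progenitors. ESCs resemble the earlier epiblast, and serum-grown cultures are known to hold a varying minority of cells with streak transcripts.

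Of the 10 genes, 6 were more than 2-fold higher in E14-Sox2 TA/WT than in E14 cells (Evx1, Cdx2, T, Mixl1, Eomes and Wnt3), 1 was more than 2-fold lower (Cdx1), and Cdx4, Wnt8a and Mesp1 lay within 2-fold. These counts use the ratio of TPM (the deposited expression level, scaled to transcript length and library size) among genes with at least 10 reads over both libraries, a filter that all 10 genes passed. Over all 16225 genes past that filter, 7.83% were more than 2-fold higher and 14.4% more than 2-fold lower. Evx1 passed the read filter only through the edited clone, with 94 reads there and just 2 from the parental line. For Evx1 the read filter thus does not separate level from ratio. The median log2 ratio of the 10 genes was 1.30, against -0.000944 over all genes. The 10 genes were chosen with earlier results of these data known, so the values over all genes give scale and are not a test. The study's own filter, which asks for 10 TPM or more in either library, kept only T, Cdx1 and Cdx2. Among these 3, T and Cdx2 were more than 2-fold higher and Cdx1 was more than 2-fold lower, where 4.17% and 4.07% of the 9094 genes past this filter were higher and lower. Each of the 3 reached 10 TPM in only the library where it was higher, so the filter itself selected them for a difference and nothing is read from this count. The 95% counting interval of the ratio lay above no change for 6 of the 10 genes, the same 6 that were more than 2-fold higher, but it did so for 39.1% of all genes past the read filter. These intervals cover the counting of reads alone. The sources used here do not state whether PCR copies of a molecule were removed, and copies that were kept would count as separate reads. In bulk RNA, more cells that express a gene and more RNA per cell cannot be told apart.

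**Figure D1:**
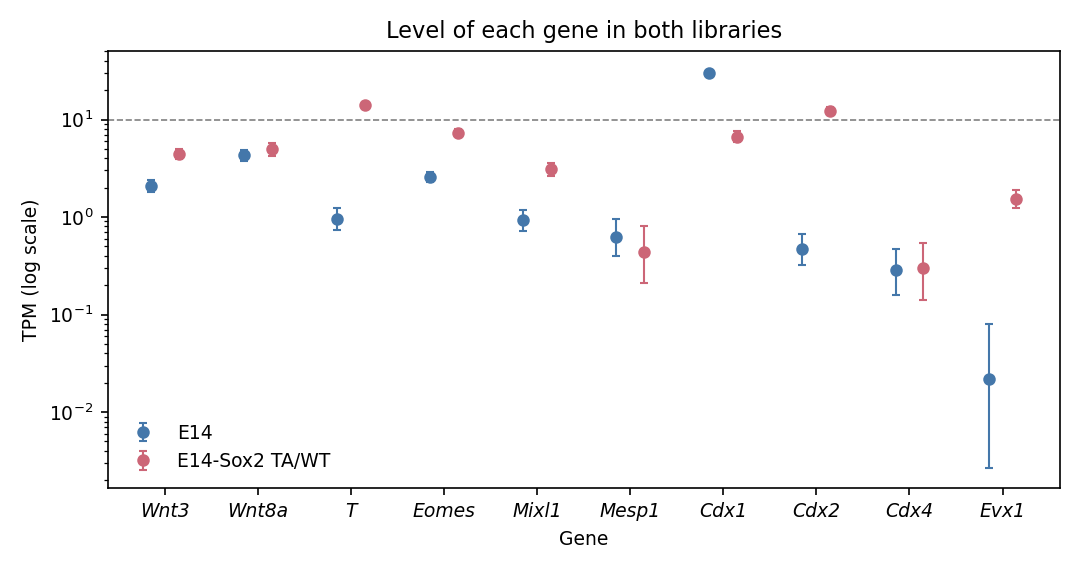
TPM of the 10 genes (log axis) in the E14 library and the E14-Sox2 TA/WT library, with bars for exact 95% counting intervals and a dashed line at 10 TPM. Cdx1 stands highest in E14 at 30.2 TPM, and T at 14.03 and Cdx2 at 12.2 TPM stand highest in E14-Sox2 TA/WT.

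**Figure D2:**
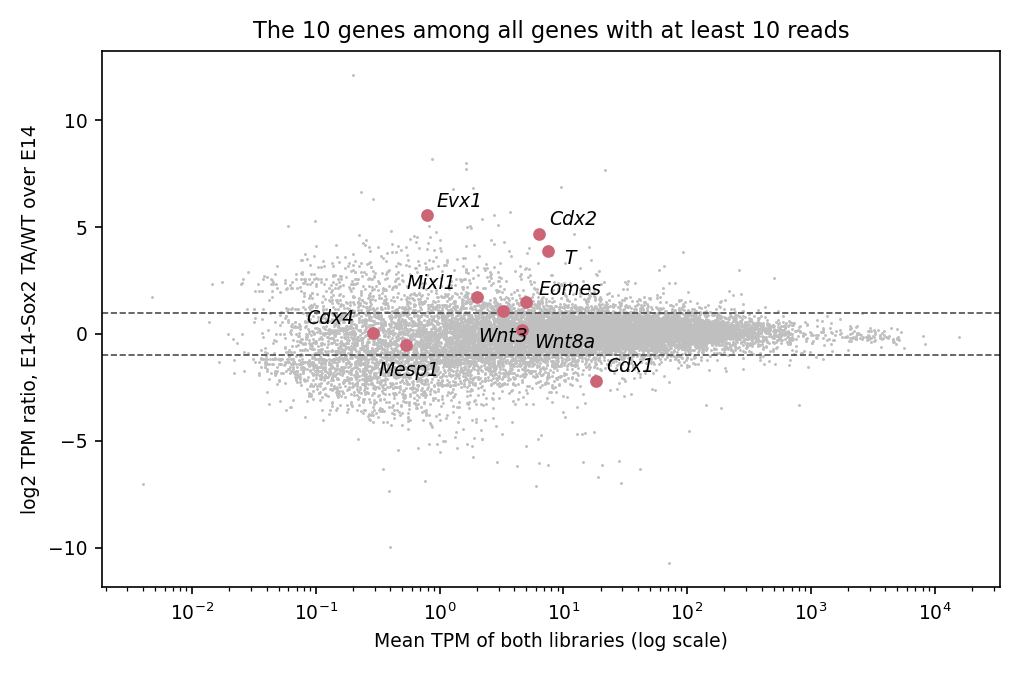
log2 TPM ratio (E14-Sox2 TA/WT over E14) against the mean TPM of both libraries (log axis) for all 16225 genes with at least 10 reads in grey and the 10 genes in red, with counts of 3 reads or fewer set to 3 reads. Dashed lines mark 2-fold, and Evx1, Cdx2 and T lie above most grey points while Cdx1 lies below most of them.

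Upstream sequences of T, Cdx2, Evx1 and Eomes are shown because 3 of these genes had the highest ratios of the 10 and Eomes is the second T-box gene of the streak among them. Each is the 250 bases before the transcription start in the RefSeq promoter set (GRCm38.p6), 5′ to 3′ on the strand of the gene. For Eomes the last 3 bases of this window lie inside the gene coordinates given with its values. Capitals mark the letters ATGCAAAT (octamer, bound by Pou5f1), TCAAAG (TCF/LEF core), AGGTGT (T-box core) and TTTATG (Cdx core) on either strand.
T, chr17:8434173-8434422, plus strand: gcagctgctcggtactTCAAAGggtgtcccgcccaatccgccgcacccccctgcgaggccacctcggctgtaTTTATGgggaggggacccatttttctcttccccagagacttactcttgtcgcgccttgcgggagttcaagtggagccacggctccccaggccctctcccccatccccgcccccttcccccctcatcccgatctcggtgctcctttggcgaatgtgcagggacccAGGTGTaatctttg
Cdx2, chr5:147307250-147307499, minus strand: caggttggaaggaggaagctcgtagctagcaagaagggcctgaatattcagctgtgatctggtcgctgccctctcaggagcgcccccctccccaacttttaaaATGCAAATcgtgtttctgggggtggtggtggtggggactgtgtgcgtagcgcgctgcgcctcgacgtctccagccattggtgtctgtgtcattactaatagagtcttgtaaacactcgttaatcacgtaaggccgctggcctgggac
Evx1, chr6:52313248-52313497, plus strand: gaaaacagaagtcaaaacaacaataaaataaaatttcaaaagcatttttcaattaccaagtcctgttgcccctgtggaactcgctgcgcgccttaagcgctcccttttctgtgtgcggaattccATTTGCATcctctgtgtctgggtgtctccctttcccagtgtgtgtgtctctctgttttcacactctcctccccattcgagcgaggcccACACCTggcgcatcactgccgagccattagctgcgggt
Eomes, chr9:118477939-118478188, plus strand: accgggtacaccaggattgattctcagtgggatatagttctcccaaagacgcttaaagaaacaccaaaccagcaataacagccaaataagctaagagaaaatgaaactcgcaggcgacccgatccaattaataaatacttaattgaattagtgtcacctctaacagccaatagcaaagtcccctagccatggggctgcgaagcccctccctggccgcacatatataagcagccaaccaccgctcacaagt

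The octamer letters lay 147 to 140 bases upstream of Cdx2 and, on the opposite strand, 126 to 119 bases upstream of Evx1. The T window held TCAAAG 234 to 229 bases, TTTATG 178 to 173 bases and AGGTGT 14 to 9 bases upstream, and the Evx1 window held AGGTGT on the opposite strand 38 to 33 bases upstream. The Eomes window held none of these letters. Windows of Wnt3, Mesp1 and Cdx4 were searched too, for 7 genes in all. Mixl1, Wnt8a and Cdx1, the only gene more than 2-fold lower, were not searched. The octamer was found in Cdx2, Evx1 and Cdx4, against 1.60% of all 32851 promoter windows of the same length. TCAAAG was found in T and Mesp1 (13.8% of all windows), AGGTGT in T, Evx1, Mesp1 and Cdx4 (11.8%), and TTTATG in T (10.8%). The letters ACAATG, a Sox core found in 10.7% of all windows, were in none of the 7, which says only that these letters were not in these 250 bases. Cdx4 and Mesp1, which lay within 2-fold, carried the letters as well. The motifs were chosen after the ratios were known, and a match is a description of letters, not a binding site.

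Among the Wnt ligands, Wnt3 was 2.11-fold higher in E14-Sox2 TA/WT cells and Wnt8a lay within 2-fold. Wnt3 (Entrez 22415, chr11:103774175-103818021, GRCm38) is the Wnt that the embryo needs to form a streak. It had 205 reads and 2.08 TPM in E14 and 290 reads and 4.40 TPM in E14-Sox2 TA/WT, a log2 ratio of 1.08 (95% counting interval 0.82 to 1.34). The counting interval of the Wnt3 ratio thus reached below 2-fold, and the log2 ratio was 0.94 when FPKM was used in place of TPM. Wnt8a (Entrez 20890, chr18:34542327-34548061), a ligand of the posterior epiblast and streak, had 206 reads and 4.30 TPM in E14 and 160 reads and 4.96 TPM in E14-Sox2 TA/WT. Its log2 ratio of 0.21 had a counting interval of -0.10 to 0.51, which spans no difference. This reading depends on the scaling as well as on depth. The log2 ratio was 0.06 with FPKM and 0.43 after correction for the GC content and length of transcripts.

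Over all 19 Wnt genes, the summed level was 24.3 TPM in E14 versus 29.0 TPM in E14-Sox2 TA/WT cells. Wnt3 made up 8.56% of that sum in E14 against 15.2% in E14-Sox2 TA/WT, and Wnt8a 17.6% and 17.1%. Of the other 17 Wnt genes, 15 had at least 10 reads, and their median log2 ratio was -0.13. Among those 15, only Wnt5a and Wnt4 were more than 2-fold higher, and 3 were more than 2-fold lower. Over all genes with at least 10 reads, 7.83% were higher and 14.4% lower by this rule. Wnt5a, a ligand of the streak and tail bud that acts mainly outside the beta-catenin branch, had 16 reads in E14 versus 317 in E14-Sox2 TA/WT, with a log2 ratio of 4.96 (4.24 to 5.79). Wnt4 had 138 and 188 reads and a log2 ratio of 1.02, which fell below 2-fold with TMM, median-of-ratios or FPKM scaling. Wnt3a, the ligand that sustains the caudal epiblast, was lower with 67 reads in E14 against 18 in E14-Sox2 TA/WT, a log2 ratio of -1.31 (-2.15 to -0.54). Wnt8b, the paralog of Wnt8a, had 65 reads in E14 versus 2 in E14-Sox2 TA/WT, a log2 ratio of -4.44 (-7.52 to -2.53).

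T and Eomes, the T-box factors of the streak, were both higher in E14-Sox2 TA/WT cells, and T by far more. T (Entrez 20997, chr17:8434423-8442496) drives mesoderm formation and the notochord. Its level was 0.954 TPM (0.732 to 1.22) in E14 against 14.03 TPM (12.9 to 15.2) in E14-Sox2 TA/WT, which is 14.7-fold (11.3 to 19.4) and rank 58 from the highest of 16225 ratios. Eomes (Entrez 13813, chr9:118478186-118486132), needed for the definitive endoderm and cardiac mesoderm, had 300 reads and 2.57 TPM (2.29 to 2.88) in E14. In E14-Sox2 TA/WT it had 575 reads and 7.34 TPM (6.76 to 7.97), a 2.85-fold difference (2.48 to 3.29). The counting intervals of the T and Eomes ratios did not overlap. Eomes shares exon sequence with an antisense gene, Gm33460 in GENCODE M21, and since the handling of strand is not stated, reads of the pair cannot be told apart.

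None of the other T-box genes with at least 10 reads was more than 2-fold higher. Of 15 others, 12 had at least 10 reads, of which 0 were more than 2-fold higher and 7 more than 2-fold lower, with a median log2 ratio of -1.24. Of those 7, 5 had a mean below 1 TPM, a level at which 40.6% of all genes were more than 2-fold lower. Mga, a large T-box repressor, had a log2 ratio of 0.78 (0.74 to 0.81) and Tbx20, a factor of the heart, 0.90 (0.41 to 1.39), both within 2-fold with intervals above 0. Tbx3, a T-box repressor expressed in naive ESCs, was the main T-box transcript in E14 with 154 TPM and stood at 55.3 TPM in E14-Sox2 TA/WT, a log2 ratio of -1.48. T was 0.497% of the summed T-box TPM in E14 versus 11.1% in E14-Sox2 TA/WT, while Eomes was 1.34% and 5.79%, Tbx3 was 80.1% and 43.6%, and Mga was 13.9% and 36.0%. The sum itself was 192 TPM in E14 against 127 TPM in E14-Sox2 TA/WT. Tbx6, which directs cells to the paraxial mesoderm downstream of T, had 139 reads in E14 versus 61 in E14-Sox2 TA/WT, a log2 ratio of -0.62 that lay within 2-fold.

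Mixl1 was higher and Mesp1 lay within 2-fold. Mixl1 (Entrez 27217, chr1:180693043-180697034), a paired-type homeobox factor of the streak, had 67 reads and 0.928 TPM in E14 and 150 reads and 3.09 TPM in E14-Sox2 TA/WT. This was 3.33-fold (2.48 to 4.51). Mesp1 (Entrez 17292, chr7:79792241-79793590), a helix-loop-helix factor of the earliest cardiac mesoderm, had 22 reads and 0.630 TPM in E14 and 10 reads and 0.439 TPM in E14-Sox2 TA/WT. The interval of its log2 ratio, -1.76 to 0.62 around -0.52, spans a 2-fold difference downward and no difference. Mesp2, the neighbor and paralog of Mesp1 that acts in somite borders, had 718 reads in E14 against 185 in E14-Sox2 TA/WT, a log2 ratio of -1.38.

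**Figure D3:**
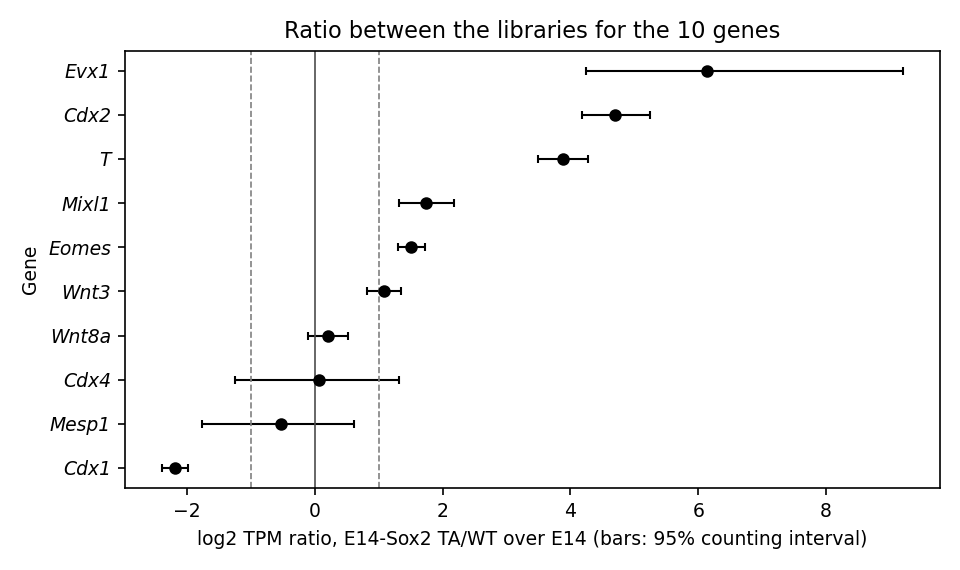
log2 TPM ratio (E14-Sox2 TA/WT over E14) of each of the 10 genes as deposited, with bars for the 95% counting interval and dashed lines at 2-fold. The intervals of Evx1, Cdx2, T, Mixl1, Eomes and Wnt3 lie above 0, that of Cdx1 lies below 0, and those of Wnt8a, Cdx4 and Mesp1 span 0.

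The 3 caudal homeobox genes went 3 ways: Cdx2 was 25.8-fold higher (18.1 to 38.1) in E14-Sox2 TA/WT cells, Cdx1 was 4.54-fold lower (3.97 to 5.21), and Cdx4 was near 1. All 3 encode factors that pattern the posterior axis and set Hox expression, and Cdx2 also specifies the trophectoderm. Cdx2 (Entrez 12591, chr5:147300900-147307249) stood at 0.474 TPM (0.324 to 0.668) in E14 versus 12.2 TPM (11.2 to 13.3) in E14-Sox2 TA/WT, rank 24 from the highest ratio. Cdx1 (Entrez 12590, chr18:61018862-61036199), a direct target of Wnt and retinoic acid in the embryo, had 1667 reads and 30.2 TPM (28.8 to 31.7) in E14. In E14-Sox2 TA/WT it had 246 reads and 6.66 TPM (5.85 to 7.54), a log2 ratio of -2.18 (-2.38 to -1.99). Cdx4 (Entrez 12592, chrX:103321398-103330224) had 15 reads in E14 against 10 in E14-Sox2 TA/WT, and its log2 ratio of 0.07 (-1.25 to 1.32) had the opposite sign under TMM, median-of-ratios and FPKM scaling.

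The makeup of the Cdx transcripts differed more than their sum. Summed TPM of the 3 genes was 31.0 in E14 versus 19.2 in E14-Sox2 TA/WT. Cdx1 was 97.6% of the sum in E14 against 34.7% in E14-Sox2 TA/WT, and Cdx2 was 1.53% and 63.7%. Cdx4 stayed a minor part, at 0.914% and 1.55%.

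**Figure D4:**
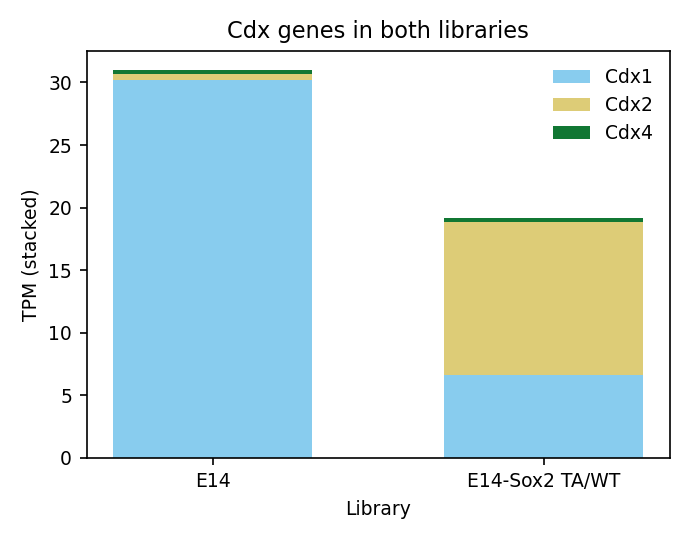
Summed TPM of Cdx1, Cdx2 and Cdx4 in each library as stacked bars from 0, without error bars. Cdx1 fills most of the E14 bar at 30.2 TPM and Cdx2 most of the E14-Sox2 TA/WT bar at 12.2 TPM.

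Cdx2 is also expressed in trophoblast and in the intestinal epithelium, and markers of both were read in the same libraries. Of 11 trophoblast markers, 8 had at least 10 reads, of which 1 (Gata3) was more than 2-fold higher and 6 more than 2-fold lower, and their summed level was 93.3 TPM in E14 versus 32.8 TPM in E14-Sox2 TA/WT. Elf5, Tpbpa and Prl3d1, markers of trophoblast lineages, had no reads in either library. Of 5 markers of the intestinal epithelium, 2 had at least 10 reads, of which Lgr5, also a Wnt target in stem cells, was more than 2-fold higher. Cdh17 and Fabp2 had no reads, and the list sum was 1.33 TPM in E14 against 0.868 TPM in E14-Sox2 TA/WT. The intestinal median log2 ratio was 0.46, and Vil1, a brush border protein, made up most of that sum with 1.28 TPM in E14 against 0.699 TPM in E14-Sox2 TA/WT. Tfap2c, which ESCs also express, made up more of the trophoblast sum than any other marker, with 50.9 TPM in E14 against 16.1 TPM in E14-Sox2 TA/WT. The part of these cell types in the level of Cdx2 was not tested.

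Evx1 (Entrez 14028, chr6:52313498-52318389), an even-skipped homeobox factor of the posterior streak, had 2 reads and 0.0221 TPM (0.00267 to 0.0797) in E14. In E14-Sox2 TA/WT it had 94 reads and 1.55 TPM (1.25 to 1.89). This was the largest ratio among the 10 genes, 70.1-fold with a wide counting interval of 18.9 to 588, and 46.8-fold when the E14 count was set to the floor of 3 reads. With that floor it ranked 13 from the highest ratio of all genes. Evx1 still was expressed at a far lower level than T or Cdx2 in E14-Sox2 TA/WT. Its antisense neighbor Evx1os, which shares exon sequence with it, had 0 reads in E14 versus 34 in E14-Sox2 TA/WT. That is 16.9-fold higher with the 0 set to 3 reads, and the counting interval starts at 13.0-fold higher. Reads of Evx1 and Evx1os cannot be told apart either. Evx2, the other even-skipped gene of the mouse, had no reads in either library.

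The order of the levels in TPM differed between the libraries. In E14, Cdx1 stood first, followed by Wnt8a, then Eomes and Wnt3, whose counting intervals overlapped. T, Mixl1, Mesp1, Cdx2 and Cdx4 came next in E14 with each interval overlapping that of its neighbor, and Evx1 was lowest. In E14-Sox2 TA/WT, T and Cdx2 stood first with overlapping intervals, then Eomes and Cdx1, then Wnt8a and Wnt3, each pair overlapping. Mixl1 and Evx1 followed, each apart from its neighbors, and Mesp1 and Cdx4 were lowest and overlapped. The 10 genes summed to 42.5 TPM in E14, of which Cdx1 was 71.2%, and to 55.0 TPM in E14-Sox2 TA/WT, of which T was 25.5%, Cdx2 22.2% and Cdx1 12.1%.

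Low levels are where ratios spread most in these libraries, so the counts were read within classes of mean TPM. Among the 6 of the 10 genes with a mean of 1 to 10 TPM, 5 were more than 2-fold higher and 0 lower, where 9.53% of the 4545 genes in this class were higher and 18.6% lower. T, Cdx2 and Mixl1 had 0.954, 0.474 and 0.928 TPM in E14 and were in this class only through E14-Sox2 TA/WT. For these genes the class rests on the difference being counted, so it does not separate level from ratio. Cdx1 alone had a mean of 10 TPM or more, a class of 8665 genes in which 3.09% were more than 2-fold lower. It was in that class through E14, as it had 6.66 TPM in E14-Sox2 TA/WT. Of the 3 below 1 TPM, only Evx1 was higher, in a class where 17.0% of 3015 genes were higher and 40.6% lower.

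The list of signals around the streak held both inducers and the inhibitors Lefty1, Lefty2, Cer1 and Dkk1. Of its 17 genes, 16 had at least 10 reads, 5 were more than 2-fold higher and 2 more than 2-fold lower, with a median log2 ratio of 0.29. The shares over all genes with at least 10 reads, for this and the lists below, were 7.83% higher and 14.4% lower. Nodal, which induces Eomes and Mixl1 in the embryo, had 134 TPM in E14 against 105 TPM in E14-Sox2 TA/WT, a log2 ratio of -0.35. Bmp4, the BMP that acts on the posterior epiblast, was higher with 11.5 TPM in E14 versus 32.6 TPM in E14-Sox2 TA/WT. The other 4 more than 2-fold higher were Wnt5a, Rspo3, Fgf8 and Lefty1, an inhibitor of Nodal, and Rspo3, a secreted enhancer of Wnt signaling, had 9 reads in E14 against 97 in E14-Sox2 TA/WT. The Wnt inhibitor Dkk1 was lower, with 154 reads in E14 versus 23 in E14-Sox2 TA/WT and a log2 ratio of -2.23 (-2.93 to -1.59), as was Wnt3a. None of the 7 receptors and transducers of Nodal differed by more than 2-fold. Their median log2 ratio was 0.43, and 0.21 after correction for the GC content and length of transcripts.

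Of 17 genes that transduce Wnt signals, 4 were more than 2-fold higher, 0 more than 2-fold lower, and the median log2 ratio was 0.60. That median was 0.38 after correction for the GC content and length of transcripts. The 4 were Lef1, Tcf7l1, Wls and Tcf7l2. Lef1, a nuclear partner of beta-catenin, had 33 reads and 0.288 TPM in E14 and 401 reads and 5.26 TPM in E14-Sox2 TA/WT, a log2 ratio of 4.19 (3.68 to 4.75). Tcf7l1, which mainly represses Wnt targets in ESCs, had 7.12 TPM in E14 against 25.0 TPM in E14-Sox2 TA/WT. Axin2, a widely used readout of beta-catenin, had a log2 ratio of 0.70, within 2-fold, and Ctnnb1, which encodes beta-catenin, of 0.18. Both the 2i inhibitor of Gsk3 and Wnt ligands act through beta-catenin, and the part of earlier 2i culture in any of these differences was not tested.

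Caudal epiblast genes outside the 10 stood higher as a list, but the list was chosen with earlier results of these data known. It also shares Fgf8, Fgf17 and Wnt3a with the list of streak signals and Sp5 with that of the nascent mesoderm. Of 12, 10 had at least 10 reads, 5 were more than 2-fold higher and 1 (Wnt3a) more than 2-fold lower, with a median log2 ratio of 1.496 and a sum of 30.3 TPM in E14 versus 59.2 TPM in E14-Sox2 TA/WT. Nkx1-2, a homeobox gene of the axial progenitors, had 4 reads in E14 against 74 in E14-Sox2 TA/WT, a log2 ratio of 4.77 (3.35 to 6.68). Sp5, a zinc finger target of Wnt, had 63 and 319 reads, and its relative Sp8 had 51 and 159. Cyp26a1, the enzyme that clears retinoic acid from the tail bud, had 0.605 TPM in E14 versus 4.52 TPM in E14-Sox2 TA/WT. Fgf8, the caudal FGF, had 2.12 and 9.51 TPM. The early Hox gene Hoxb1 lay within 2-fold at a log2 ratio of -0.38.

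Genes of the steps after the streak did not stand higher as lists. Over all genes with at least 10 reads, 7.83% were more than 2-fold higher and 14.4% more than 2-fold lower. Among genes with a mean below 1 TPM, a class that includes Gsc, Foxa2, Lhx1, Msgn1 and Foxc1, these shares were 17.0% and 40.6%. Of 13 factors of the nascent mesoderm, 3 were more than 2-fold higher and 4 more than 2-fold lower, with a median log2 ratio of 0.16. The 3 higher were Sp5, Msgn1 at 2 and 9 reads, and Foxc1 at 26 and 36 reads, and the 4 lower included Mesp2 and the Notch ligand Dll1, which had 1309 reads in E14 against 222 in E14-Sox2 TA/WT. Of 9 genes of the anterior streak and definitive endoderm, 7 had at least 10 reads, 1 was more than 2-fold higher and 3 more than 2-fold lower, with a median log2 ratio of -0.87. Gsc, the anterior streak factor, had 16 reads in E14 versus 0 in E14-Sox2 TA/WT. That is 3.57-fold lower with the 0 set to 3 reads, and the counting interval starts at 2.58-fold lower. Sox17, the endoderm factor, had 344 and 67 reads, a log2 ratio of -2.09. Sox17 and Foxa2, whose ratio is the median of this list, are also in the list of primitive endoderm markers, so these lists are not independent. The 1 higher was Lhx1, at 6 and 15 reads.

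**Figure D5:**
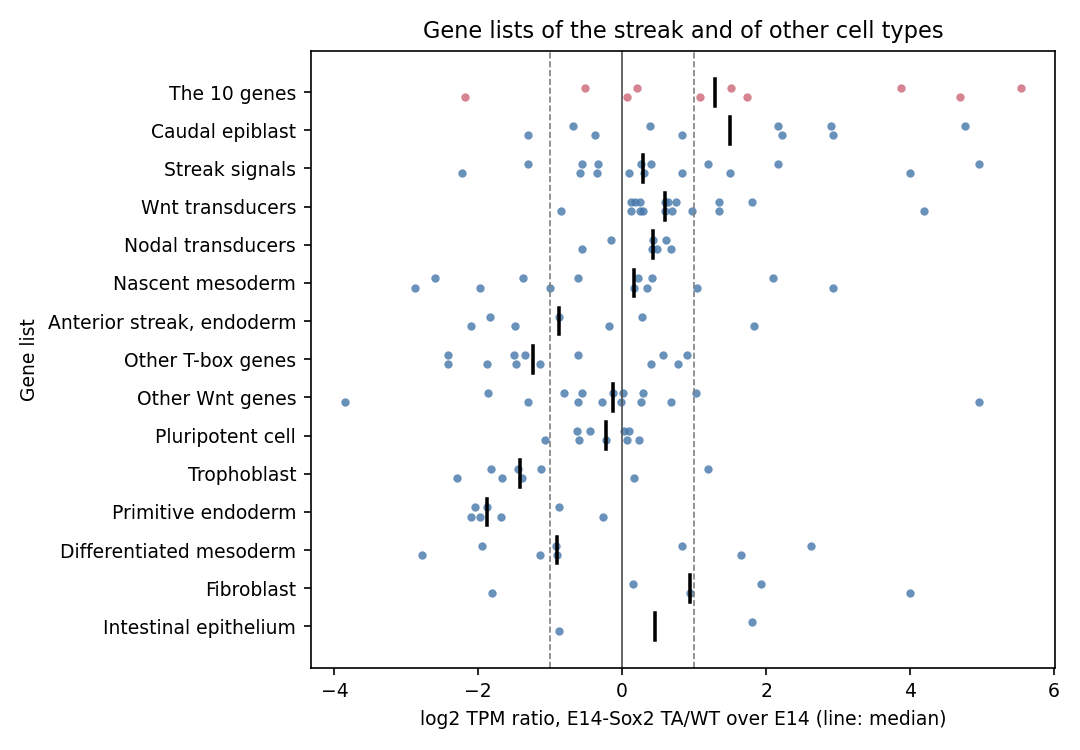
log2 TPM ratio (E14-Sox2 TA/WT over E14) of each gene with at least 10 reads over both libraries in the 10 genes and in the other lists, with counts of 3 reads or fewer set to 3 reads, a black line at the median of each list and dashed lines at 2-fold. The medians of the 10 genes (1.30) and of the other caudal epiblast genes (1.496) lie highest, and that of the primitive endoderm markers (-1.88) lies lowest. The lists were chosen with earlier results of these data known, and some genes are in more than 1 list.

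Markers of other cells that an ESC culture can hold were given for comparison. Over all genes with at least 10 reads, 7.83% were more than 2-fold higher and 14.4% more than 2-fold lower. Of 9 markers of pluripotent cells, 0 were more than 2-fold higher and 1 more than 2-fold lower, with a sum of 11297 TPM in E14 against 8458 TPM in E14-Sox2 TA/WT and a median log2 ratio of -0.23. The 1 lower was Nanog, a factor of naive pluripotency, at 527 TPM in E14 against 251 TPM in E14-Sox2 TA/WT, and Klf4 and Dppa5a lay within 2-fold at log2 ratios of -0.60 and -0.63. Pou5f1, the Oct4 gene, stood at 1725 TPM in E14 against 1759 TPM in E14-Sox2 TA/WT. Sox2, the edited gene, stood at 373 and 274 TPM, and its level does not check a missense change. Of 9 primitive endoderm markers, 7 had at least 10 reads and 5 of them, among them Gata6 and Gata4, were more than 2-fold lower, with a sum of 46.9 TPM in E14 versus 17.4 TPM in E14-Sox2 TA/WT, and Afp and Ttr had no reads in either library. Of 9 markers of differentiated mesoderm, 2 of the 8 with at least 10 reads (Kdr and Meox1) were more than 2-fold higher and 3 more than 2-fold lower. Kdr and Meox1 had a mean below 1 TPM, a class in which 17.0% of all genes were higher and 40.6% lower. Of 8 fibroblast markers, 5 had at least 10 reads, 2 of them (Col3a1 and Col1a2) more than 2-fold higher and 1 lower, Dcn, Lum and Postn had none in either library, and the median log2 ratio was 0.94. Their sum was 43.2 TPM in E14 against 17.0 TPM in E14-Sox2 TA/WT, most of it Thy1, the 1 lower, at 40.1 and 11.4 TPM, while Col3a1, a fibrillar collagen, had 15 and 151 reads. The part of these cell types in the levels of the 10 genes was not tested.

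The genes beside the 10 on their chromosomes were read in the same way, taking on each side the nearest gene with at least 10 reads that does not overlap the gene itself. Evx1os, which shares exon sequence with Evx1, is therefore not among them and was higher, with 0 reads in E14 against 34 in E14-Sox2 TA/WT. Of these 20 neighbors, 7 differed by more than 2-fold, and all 7 were lower in E14-Sox2 TA/WT cells, where 14.4% of all genes with at least 10 reads were more than 2-fold lower and 7.83% higher. Among the 7, Pdx1, Flt3 and Hoxa13 had at most 20 reads in E14. Beside Cdx2, Pdx1 had 17 reads in E14 versus 0 in E14-Sox2 TA/WT, and Flt3 had 12 and 0. Beside T, T2 and Pde10a had log2 ratios of 0.66 and 0.77, within 2-fold. Both neighbors of Cdx1 were lower, as Cdx1 was, Slc6a7 at a log2 ratio of -1.26 and Pdgfrb at -1.24. Both neighbors of Mesp1 were lower too, Wdr93 at -1.13 and Mesp2 at -1.38, while Mesp1 itself lay within 2-fold. Hoxa13, on the Hox cluster side of Evx1, had 20 reads in E14 against 2 in E14-Sox2 TA/WT.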

How the data were processed

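Polyadenylated RNA of parental E14 and of the edited clone was sequenced (1 library each), and genotypes were assigned from the sample labels. The authors deposited read counts as whole numbers per gene on mm10 (GRCm38) without normalization. FPKM values deposited by the authors are scaled per kilobase and to the fragments of the library, and TPM values deposited by the authors are a constant multiple of FPKM within a library, except at 56 of the genes with at least 10 reads, none of them among the 10 genes. The submitters' processing notes name bcl2fastq 2.20.0, Trimmomatic, HISAT2 2.1.0 and StringTie 2.1.3b without a role for each, and the handling of strand and of reads that map to several places is not given in the sources used here.

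The TPM ratio (E14-Sox2 TA/WT over E14) was computed without a pseudocount, for genes with at least 10 reads over both libraries or, after the study's methods, 10 TPM or more in either library, and differences over 2-fold were counted. With 1 library per genotype no test was possible and no p-value is given. Ratio intervals (95%) are exact Clopper-Pearson intervals of the share of reads, and level intervals are exact Poisson intervals, both on the TPM scale. Counts of 3 reads or fewer were set to 3 in counts of genes, medians and ranks, a floor of 0.0498 CPM in E14 versus 0.0673 CPM in E14-Sox2 TA/WT. Gene positions and promoter windows came from RefSeq (GRCm38), and overlaps from GENCODE M21.

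Named were the 10 genes, genes of the lists and, for T, Cdx1 and Cdx2, the 3 genes of nearest ratio among those past the TPM filter. The values of 1 list gene are not reported here, and the gene was kept in the counts, sums and medians of its list. Members and lists were chosen with earlier results of these data known, and flanking genes, overlapping genes and motifs were chosen after the ratios were seen. Alternatives were TMM scaling (edgeR 4.0.16), median-of-ratios scaling (DESeq2 1.42.0), FPKM, centring on the median, pseudocounts, other filters and folds, and, added after seeing the data, correction for the GC content and length of transcripts. Scripts (Python 3.11.15, pandas 2.3.3, scipy 1.17.1) were tested on simulated data.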

Additional observations from a re-analysis of the deposited data

How the results depend on the processing

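The number of the 10 genes more than 2-fold higher rested on the filter on low values. It was 2 with the filter at 10 TPM, 6 with the filter at 1 TPM, 6 with no TPM filter and 0 with the filter at 20 TPM, where fewer of the genes were left. With the read filter it was 6, and 5 with FPKM or with a pseudocount of 1 TPM, where Wnt3 came to log2 ratios of 0.94 and 0.81, and 4 at 3-fold. FPKM moved the median log2 ratio of all genes to -0.14. The 1 gene lower, Cdx1, was so in every alternative run. No called gene changed sign. The log2 ratio of Evx1, 5.55 with the floor of 3 reads, ranged from 1.32 with a pseudocount of 1 TPM to 5.79 with the GC and length trend removed. Without floor or pseudocount, the Evx1 log2 ratio as deposited was 6.13, above that range. Cdx2 ranged from 3.17 to 4.90. Among list counts of genes higher, 67 of 70 values under the alternatives stayed within 1.5 times, as did 68 of 70 for genes lower. Of 70 medians, 5 moved by 0.2 or more on the log2 scale, all of them with the GC and length trend removed, and 0 reversed. These 5 were those of the Wnt transducers (to 0.38), Nodal transducers (0.21), nascent mesoderm (0.38), anterior streak and endoderm (-0.62) and fibroblast markers (1.31). No replicate could be left out, and no paired analysis was possible because each genotype had 1 library. Evx1, Cdx4 and Mesp1, with at most 22 reads in E14, are those the depth limits most.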

Other observations

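Among genes that reached 10 TPM in either library, those whose log2 ratio lay nearest to that of T (3.88) were Atp6v0c (3.82), Fndc3c1 (3.71) and Gbp2 (4.08). Nearest to Cdx2 (4.69) were Gbp2b (4.68), Gbp2 (4.08) and T. Nearest to Cdx1 (-2.18) were Tle6 (-2.18), Rbp4 (-2.17) and Cplx1 (-2.16). The likeness is the difference in 1 ratio over 2 libraries.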
